A study of Mus musculus with 35 samples.

Results

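The mitochondrially encoded genes are the 37 genes of mouse mitochondrial DNA, taken here as every gene whose deposited symbol starts with mt-, out of 38924 genes counted in the series. They comprise 2 ribosomal RNA genes, 13 protein-coding genes (mRNAs) and 22 transfer RNA genes, and 28 lie on the plus strand and 9 on the minus strand of the reference. RNA sequencing counts of these genes were available for 35 libraries of CD8 T cells from C57BL/6 mice, sorted from brain or spleen by the surface phenotype CD3e+CD8+CD44hiCD62Llo, that of effector memory cells. Stimulation meant 2 h with PMA, which activates protein kinase C, plus ionomycin, which lets calcium into the cell; the pair acts downstream of the antigen receptor. The 7 groups were aged female brain stimulated (n = 5, replicates 23 to 27), aged male brain stimulated (n = 4, replicates 19 to 22), aged male spleen stimulated (n = 5, replicates 36 to 40), and, without stimulation, aged female brain (n = 5, replicates 13 to 17), aged male brain (n = 6, replicates 7 to 12), young male brain (n = 5, replicates 2 to 6) and aged male spleen (n = 5, replicates 30 to 34). Groups are aged unless called young; the labels give no ages in months. Whether each replicate is its own animal is not stated, and p-values therefore measure a spread between samples that may be technical.

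Mitochondrial DNA is transcribed from both strands into long precursor RNAs, from which the ribosomal RNAs, mRNAs and transfer RNAs are cut, often at the transfer RNAs that lie between the other genes. The mRNAs encode core subunits of the respiratory chain, the series of inner membrane complexes that transfers electrons to oxygen and drives ATP synthesis. mt-Nd1 to mt-Nd6 and mt-Nd4l encode subunits of complex I (NADH dehydrogenase), mt-Cytb of complex III, mt-Co1 to mt-Co3 of complex IV (cytochrome c oxidase) and mt-Atp6 and mt-Atp8 of complex V (ATP synthase). mt-Rnr1 and mt-Rnr2 are the RNAs of the small and large subunits of the mitochondrial ribosome, which translates these mRNAs. The polymerase, the transcription factors and most respiratory chain subunits are encoded in the nucleus.

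The members span chrM:1-15422 on GRCm38 and are packed with little or no space between them. mt-Nd6 (ENSMUSG00000064368, chrM:13552-14070) is the only mRNA on the minus strand, and its first 120 bases are set beside those of mt-Co1 (ENSMUSG00000064351, chrM:5328-6872, plus strand), because these mRNAs moved apart in the results below. Capitals mark G, 28 in mt-Nd6 and 23 in mt-Co1; sequences are GENCODE M21 transcripts, 5′ to 3′.
mt-Nd6, chrM:13951-14070, minus strand: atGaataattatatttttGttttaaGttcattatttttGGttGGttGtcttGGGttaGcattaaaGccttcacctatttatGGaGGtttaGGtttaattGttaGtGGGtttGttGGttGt
mt-Co1, chrM:5328-5447, plus strand: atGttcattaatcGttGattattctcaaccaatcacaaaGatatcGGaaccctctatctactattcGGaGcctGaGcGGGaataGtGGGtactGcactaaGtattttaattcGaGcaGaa
Over the whole transcript, mt-Nd6 had 28.1% G and 5.97% C, while the 12 plus-strand mRNAs had 5.88% to 16.1% G and 22.1% to 29.97% C. The coding strands of the DNA thus differ in base composition, and mt-Nd6 stands outside the range of the other mRNAs for both bases.

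Several neighbouring members share bases, and reads within a shared stretch cannot be assigned to one gene by position. Such stretches were longest for mt-Atp8 and mt-Atp6, which are read in different frames over 43 bases of the same strand. mt-Nd5 and mt-Nd6 end in a shared stretch of 14 bases, read from opposite strands. Whether counting used strand is not given in the sources used here, so reads of a gene and its antisense RNA cannot be told apart. Capitals mark the bases shared by each pair.
mt-Atp8, last 90 bases, chrM:7880-7969, plus strand: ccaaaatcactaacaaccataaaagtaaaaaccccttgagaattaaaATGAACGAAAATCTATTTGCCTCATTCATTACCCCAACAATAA
mt-Atp6, first 90 bases, chrM:7927-8016, plus strand: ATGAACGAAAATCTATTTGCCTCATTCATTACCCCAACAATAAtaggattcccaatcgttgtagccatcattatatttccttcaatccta
mt-Nd5, last 60 bases, chrM:13506-13565, plus strand: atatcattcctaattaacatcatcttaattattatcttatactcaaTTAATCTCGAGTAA
mt-Nd6, last 60 bases, chrM:13552-13611, minus strand: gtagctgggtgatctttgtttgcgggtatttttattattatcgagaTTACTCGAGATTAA

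The stimulated brain libraries differed from the rest in depth and content. Library totals ran from 1.16 to 24.97 M counts, and genes with at least 1 count numbered 4211 to 6769 in stimulated female brain and 2271 to 4464 in stimulated male brain, against 6456 to 12706 in unstimulated brain and 13729 to 15174 in spleen. Summed T cell markers (7 genes, Cd3e, Cd8a and others) stood at 759 to 1246 CPM (counts scaled to the library total) in stimulated female brain and 112 to 911 CPM in stimulated male brain, against 2613 to 7359 CPM in the other groups. Choroid plexus markers summed to 82.1 to 790 CPM in stimulated female brain and 0 to 3440 CPM in stimulated male brain, against 0 to 17.8 CPM (female) and 2.98 to 1419 CPM (male) in unstimulated aged brain. The median of summed microglia markers was 12.6 CPM in stimulated against 140 CPM in unstimulated females, and 8.47 CPM in stimulated and 147 CPM in unstimulated male brain, with overlapping ranges. Oligodendrocyte markers summed to 50.9 to 265 CPM in stimulated brain, against 41.3 to 226 CPM in unstimulated aged brain. Neuron markers had 3.16 to 209 CPM (female) and 0 to 214 CPM (male, 3 of 4 libraries at 0), against 0 to 31.1 and 0.12 to 45.3 CPM. B cell and myeloid markers were at 0 in the stimulated brain libraries. Without stimulation B cell markers had 0 CPM (female) and 0 to 13.5 CPM (aged male), and myeloid markers 0 to 45.6 and 0.631 to 415 CPM. Sex-linked genes gave no check of the labels in 4 libraries (stimulated female brain 27 and stimulated male brain 20, 21 and 22), which had at most 1 count of 5 such genes. Sample titles fell into 3 sets, A (unstimulated male brain, both ages), B (stimulated female brain 23 to 25, stimulated male brain and female brain without stimulation) and C (all spleen libraries and stimulated female brain 26 and 27); C titles lack hyphens, and the split of A from B is inferred from repeating numbers in the titles. What the sets stand for is not stated, and where a comparison runs across them, set and group cannot be told apart.

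Mitochondrial genes made up most of the counts in 7 of the 9 stimulated brain libraries and 8.28% to 20.8% of the counts in the other groups. The share was 42.1%, 66.0%, 59.6%, 55.5% and 69.7% in the stimulated female brain libraries (mean 58.6% ± 10.8, SD, n = 5), against 8.48%, 9.83%, 11.5%, 10.1% and 12.8% in unstimulated female brain (mean 10.5% ± 1.65, n = 5). In males it was 38.5%, 54.2%, 65.0% and 67.5% in stimulated brain (mean 56.3% ± 13.2, n = 4), against 9.32% to 10.5% in unstimulated brain with a median of 9.77% (n = 6). Every stimulated brain library lay above every unstimulated one by a wide margin, and the stimulated libraries also varied most among themselves. Spleen cells had 15.6%, 15.5%, 14.8%, 15.1% and 20.8% with stimulation (mean 16.3% ± 2.53, n = 5), against 10.8%, 12.2%, 11.7%, 10.8% and 13.3% without (mean 11.8% ± 1.05, n = 5). These spleen groups did not overlap either, though the gap between them was small. Unstimulated young male brain had 8.28% to 10.1% (n = 5), overlapping the aged male range.

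A share does not tell more mitochondrial RNA apart from less of the other RNA, and in bulk samples fewer cells and less RNA per cell cannot be told apart. Counts outside the mitochondrial genes were 0.671 to 3.72 M in stimulated female brain and 0.376 to 3.93 M in stimulated male brain, against 5.89 to 22.5 M in the unstimulated brain groups. In spleen they were 5.73 to 9.37 M with stimulation and 8.03 to 13.1 M without. Mitochondrial counts themselves, unscaled, were 780496 to 2503270 in stimulated male brain and 1005671 to 2441334 in unstimulated aged male brain, which overlap. In female brain they were 1545711 to 5486909 with stimulation and 766636 to 1607241 without, which overlap too. The part of depth, T cell marker level and choroid plexus RNA in the mitochondrial share was not tested. Malat1 and Neat1, nuclear long non-coding RNAs, summed to 794 to 3208 CPM in stimulated female brain and 471 to 1584 CPM in stimulated male brain, against 2473 to 4755 CPM in unstimulated brain. Counting error was small beside these differences: the widest 95% Wilson interval of a library's mitochondrial share spanned 0.171 percentage points, which covers counting error only.

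**Figure D1:**
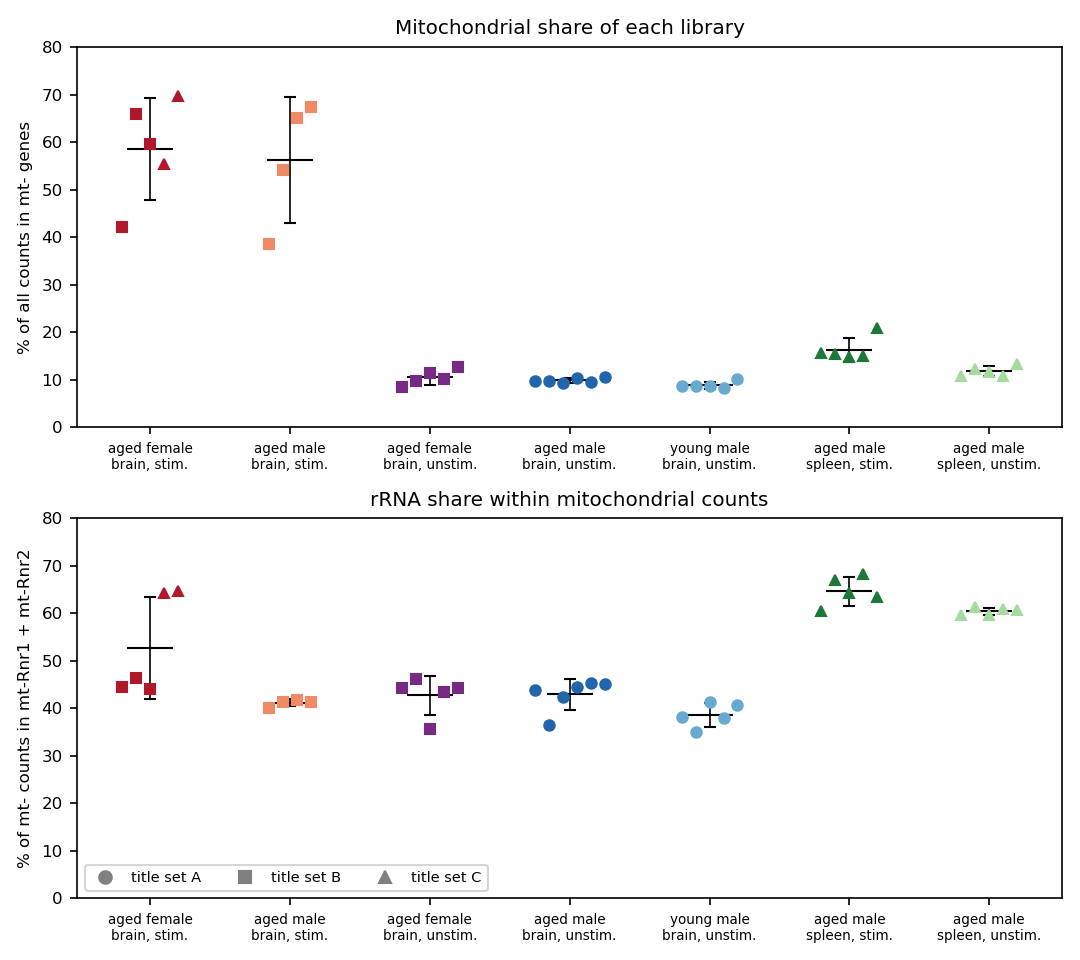
Top, percent of all counts in the 37 mitochondrial genes; bottom, percent of the mitochondrial counts in mt-Rnr1 and mt-Rnr2, for each library by group. Points are libraries, with the title set A, B or C given by their shape, and bars give the mean and SD; stimulated brain libraries reach 38.5% to 69.7% at the top, and set C stands at 59.6% to 68.1% at the bottom, above sets A and B.

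The ribosomal RNAs had the highest mean CPM of the members in stimulated brain and in spleen, while mt-Co1 was highest in unstimulated male brain, aged and young. mt-Rnr1 (chrM:70-1024) had 86434, 147275, 124849, 165280 and 204378 CPM in stimulated female brain, against 17828 to 26921 CPM in unstimulated female brain. In male brain mt-Rnr1 had 71068, 105704, 133005 and 127602 CPM with stimulation, against 15593 to 23278 CPM without. The large subunit RNA mt-Rnr2 (chrM:1094-2675) had 100271 to 245801 CPM in stimulated female brain, against 19759 to 29478 CPM in unstimulated female brain. The stimulated and unstimulated brain groups were separate for both RNAs. In spleen mt-Rnr1 had 42994 to 59226 CPM with stimulation and 29073 to 38815 CPM without, again without overlap. The ratio of mt-Rnr1 to mt-Rnr2 counts stayed between 0.777 and 1.03 in the 35 libraries, so these RNAs, cut from one precursor, moved together.

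The balance of ribosomal RNA and mRNA differed between the title sets. Ribosomal RNA took 59.6% to 68.1% of mitochondrial counts in set C (n = 12), against 34.9% to 45.2% in set A (n = 11) and 35.7% to 46.3% in set B (n = 12). Stimulated female brain was itself split: replicates 23 to 25, of set B, had 44.1% to 46.3%, and replicates 26 and 27, of set C, had 64.1% and 64.6%. Within set B, the share was 44.1% to 46.3% in stimulated female brain and 35.7% to 46.1% in unstimulated female brain, which overlap. Within set C it was 60.4% to 68.1% in stimulated spleen and 59.6% to 61.2% in unstimulated spleen, which overlap too. Brain and spleen males fall wholly into different sets, so a difference of ribosomal RNA between them cannot be told apart from the set.

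The order of the mRNAs per length was steady at its top and loose below. TPM divides by effective length, the number of positions a fragment can start from, which is shorter than the gene. It was 30.1 to 68.5 for mt-Atp8 (204 bases) and 103 to 153 for mt-Nd4l (297 bases), so TPM raises short genes most. In TPM mt-Atp6 ranked highest of the 13 mRNAs in 35 of 35 libraries and mt-Co1 next in 35 of 35. Over all libraries the median was 17218 TPM for mt-Atp6, 12141 TPM for mt-Co1 and 5406 TPM for mt-Co2, which ranked between 3 and 5. mt-Nd3 (chrM:9459-9806) was last in 32 of 35 libraries, with a median of 733 TPM. The 9 mRNAs between mt-Co2 and mt-Nd3 changed places often. For example, mt-Co3 (median 3274 TPM) was above mt-Nd6 (3187 TPM) in 18 of 35 libraries, and mt-Nd4l (2241 TPM) was above mt-Nd4 (2178 TPM) in 13 of 35. As counted, such neighbours do not differ beyond the spread between libraries. mt-Nd4l had the same count as a nuclear copy in 35 of 35 libraries, described below, so its level and rank are uncertain. mt-Atp8 overlaps mt-Atp6 by 43 bases of the same strand, so reads there cannot be assigned by position. Its median was 3633 TPM and its rank ran from 3 to 13, values that also rest on its short effective length.

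**Figure D2:**
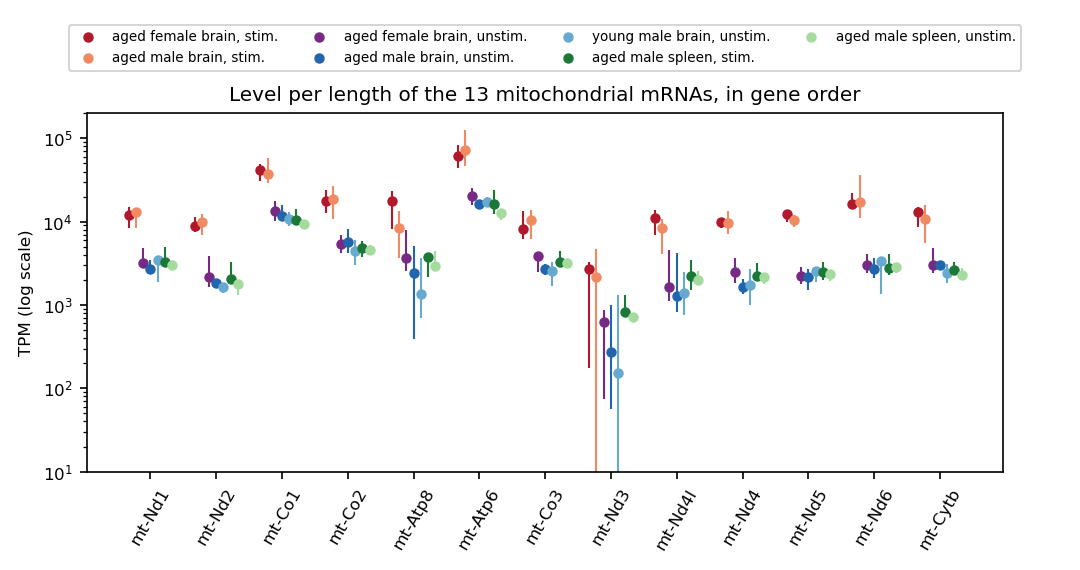
Level of each of the 13 mRNAs in TPM (log axis) in the 7 groups; points are group medians and lines run from the lowest to the highest library, with values under 10 TPM, 0 included, drawn at 10. mt-Atp6 and mt-Co1 lead in every group, and the lines are longest for mt-Nd3 and mt-Atp8.

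The shortest mRNAs were the least repeatable. The coefficient of variation of a gene's share of the mRNA counts within a group had a median over the 7 groups of 58.9% for mt-Nd3, 35.3% for mt-Atp8 and 24.2% for mt-Nd4l, which are 348, 204 and 297 bases long. It was 4.64% for mt-Co1 and 5.91% for mt-Atp6. In stimulated male brain the 4 libraries had 10192, 1, 5524 and 0 counts of mt-Nd3, while mt-Co1 stood at 74850 to 125652 CPM in the same libraries. The library at 0 (replicate 22, 1.16 M counts) allows up to 2.59 CPM, taking 3 counts as the limit. In young male brain mt-Nd3 had 4193, 5, 2216, 411 and 378 counts. In spleen, by contrast, mt-Nd3 varied by 13.4% with stimulation and 6.92% without. Values of mt-Nd3 in brain are therefore given without reading a direction from single libraries.

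Stimulation of male brain cells was accompanied by higher levels of nearly every measured mitochondrial gene, as a fraction of the library and after TMM scaling. TMM is a trimmed mean of fold changes between libraries. These levels are relative, and the unscaled mitochondrial totals, given above, overlapped between the groups. Of the 37 members, 16 passed the low-count filter (2 ribosomal RNAs, 13 mRNAs and the transfer RNA mt-Tg), and 15 were higher in stimulated male brain than in unstimulated male brain at an adjusted p below 0.05 (edgeR quasi-likelihood test, Benjamini-Hochberg over 7540 genes). Of all genes tested in this comparison, 38.1% were called, and 1.75% were called higher. The median log2 fold change was 3.33 for the 13 mRNAs and -2.63 for all genes tested. In CPM, 15 of the 16 had every stimulated library above every unstimulated one, as 1.27% of the genes compared did. mt-Nd3 was the exception in both counts, with a log2 fold change of 3.92 ± 1.57 (SE) and an edgeR adjusted p of 0.0585. Stimulated male brain lies in title set B and unstimulated male brain in set A, so set and stimulation cannot be told apart here.

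By role, the complex I genes mt-Nd6, mt-Nd4 and mt-Nd2 showed the highest fold changes among mRNAs called in male brain. mt-Nd6 had 7251, 10309, 13831 and 19765 CPM in stimulated male brain, against 923 to 1631 CPM in unstimulated male brain, a log2 fold change of 3.97 ± 0.43 (SE). mt-Nd4, the subunit gene next to mt-Nd4l, had 16432, 24923, 23324 and 25695 CPM with stimulation, against 2261 to 2922 CPM without, a log2 fold change of 3.63 ± 0.33. mt-Nd5 had 26671 to 36769 CPM, against 3433 to 5511 CPM (log2 fold change 3.33 ± 0.31). These groups were several-fold apart with no overlap. Cytochrome b, mt-Cytb, had 10295, 19813, 22456 and 24544 CPM with stimulation, against 3402 to 4266 CPM without (log2 fold change 2.89 ± 0.36). The catalytic subunit gene of cytochrome c oxidase, mt-Co1, had the lowest fold change of the called members at 2.74 ± 0.25, with 74850, 100015, 109483 and 125652 CPM, against 19498 to 25894 CPM. mt-Atp6 of ATP synthase had 45256, 64985, 85324 and 101622 CPM, against 9564 to 11285 CPM (log2 fold change 3.37 ± 0.29). Ribosomal RNAs mt-Rnr1 and mt-Rnr2 rose by log2 fold changes of 2.996 ± 0.26 and 3.04 ± 0.24.

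Female brain cells also had higher levels of the members with stimulation. All 16 members tested were called higher in stimulated than in unstimulated female brain (edgeR quasi-likelihood test, Benjamini-Hochberg over 6305 genes), where 6.09% of the genes tested were called and 1.92% called higher. The mRNAs had a median log2 fold change of 3.69, and all genes tested had -0.41. In CPM, 15 of the 16 separated the groups, as 1.24% of the genes compared did, and mt-Nd3 overlapped. mt-Nd6 led the mRNAs with 8102, 13578, 11058, 7802 and 8475 CPM in stimulated female brain, against 998 to 1628 CPM in unstimulated female brain, a log2 fold change of 4.41 ± 0.32. mt-Co1 had 82950, 112358, 106884, 64282 and 82534 CPM, against 16568 to 29722 CPM (3.40 ± 0.27), and mt-Co3, the lowest of the mRNAs, had a log2 fold change of 3.21 ± 0.35. The ribosomal RNAs stood at 4.23 ± 0.28 for mt-Rnr1 and 4.27 ± 0.29 for mt-Rnr2. Scaled to total counts instead of TMM, these were 2.74 and 2.78, and the median was 2.21 for the mRNAs and -1.81 for all genes, with mt-Tg and mt-Nd3 no longer called (edgeR adjusted p 0.0973 and 0.103). In male brain that scaling called 15 members, with medians of 2.79 for the mRNAs and -3.13 for all genes. With the set C libraries 26 and 27 left out, the TMM-scaled ribosomal RNA values became 3.77 and 3.75, and 14 members were called. Whether the response differed by sex was tested as an interaction, which called 0 members of 16 while 2.6% of genes tested were called. The nearest were mt-Rnr1 and mt-Rnr2, at 1.21 and 1.21 on the log2 scale (edgeR adjusted p 0.058 and 0.0544), and 2 members, both ribosomal RNAs, had an unadjusted p under 0.05. A fit of all 35 libraries called 2 members, as did leaving out stimulated female brain 23 or stimulated male brain 21.

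**Figure D3:**
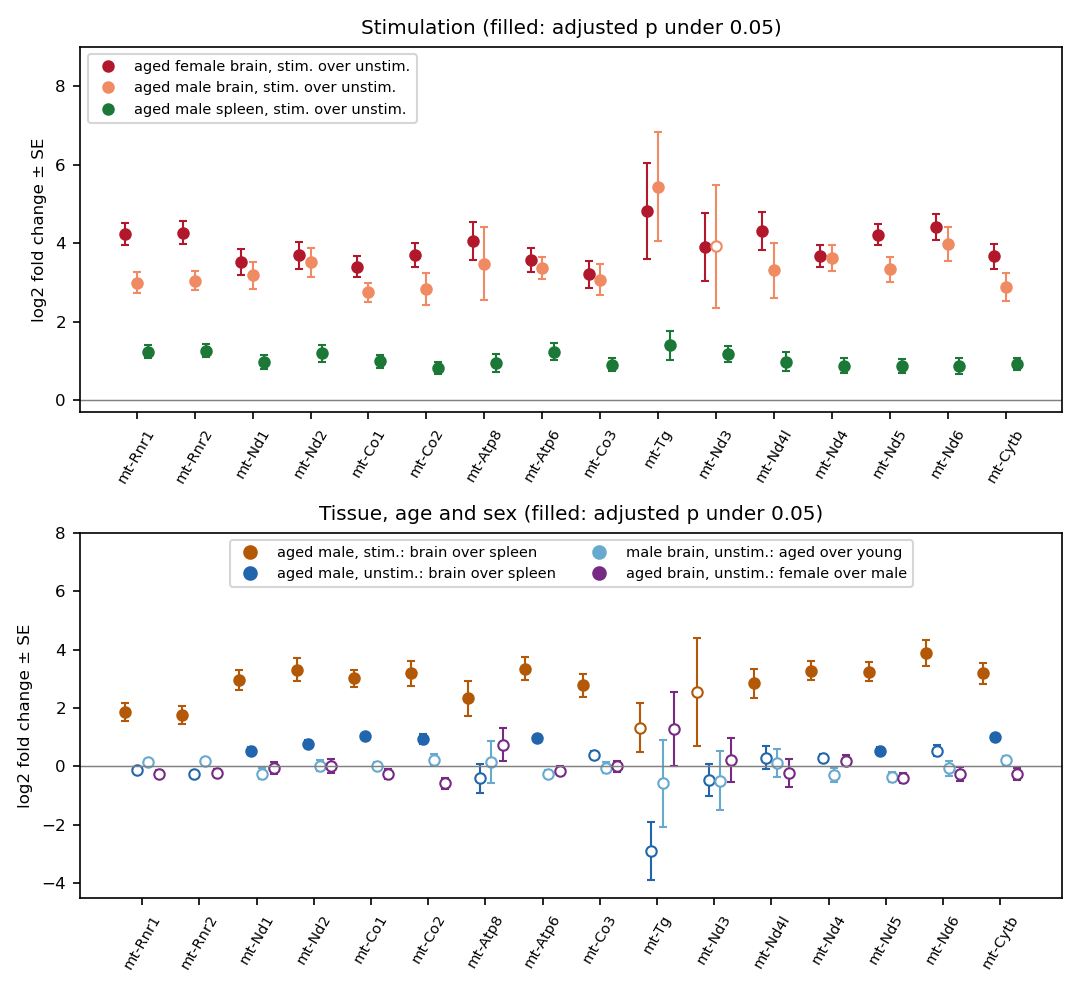
Log2 fold change with SE for the 16 members that passed the filter, top for stimulation in female brain, male brain and spleen, bottom for brain over spleen with and without stimulation, aged over young and female over male without stimulation. Filled points have an adjusted p below 0.05; brain stimulation lies between 2.74 and 5.44, spleen stimulation between 0.82 and 1.40, and the age and sex points are all open.

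Spleen cells showed a smaller rise, and its extent depended on scaling. All 16 members were called higher with stimulation (edgeR quasi-likelihood test, Benjamini-Hochberg over 11107 genes), where 18.7% of genes tested were called and 12.6% called higher, with log2 fold changes of 0.82 (mt-Co2) to 1.40 (mt-Tg). The median was 0.95 for the mRNAs and -0.07 for all genes tested. mt-Rnr1 rose by 1.24 ± 0.16 and mt-Atp6 by 1.23 ± 0.21 on the log2 scale. mt-Atp6 had 13480, 10160, 9913, 8190 and 15828 CPM in stimulated spleen, against 7376, 8012, 8251, 6965 and 8895 CPM in unstimulated spleen, and the groups overlapped. In CPM only mt-Rnr1, mt-Rnr2 and mt-Nd3 separated the groups, 3 of 16, as 4.33% of the genes compared did upward. mt-Nd3, so variable in brain, had 187, 194, 221, 198 and 329 CPM with stimulation, against 162, 169, 168, 146 and 161 CPM without. When scaled to total counts instead of TMM, 6 members stayed past the threshold, with log2 fold changes of 0.56 for mt-Rnr1, 0.58 for mt-Rnr2, 0.54 for mt-Atp6, 0.50 for mt-Nd2, 0.48 for mt-Nd3 and 0.30 for mt-Co1. That scaling moved the median of all genes to -0.73 and that of the mRNAs to 0.27. In a fit of all 35 libraries together, 3 members were called.

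The rise was larger in male brain than in male spleen. The interaction of tissue and stimulation was called higher for 15 of 16 members (edgeR quasi-likelihood test, Benjamini-Hochberg over 12117 genes), where 37.8% of genes tested were called and 2.1% called higher, with mt-Nd3 not called (2.61 ± 1.67, adjusted p 0.219). With no filter on low counts, 5 members passed. The male brain groups lie in different title sets, so set and the brain response cannot be told apart in this interaction. Among the mRNAs called, the difference in log2 fold change ran from 1.61 ± 0.34 for mt-Co1 to 2.95 ± 0.50 for mt-Nd6. The median over the mRNAs was 2.17, and over all genes tested -4.04. Compared directly, stimulated male brain was above stimulated spleen for 14 of 16 members (48.5% of genes called, 1.82% called higher), with a median log2 fold change of 3.19 for the mRNAs and -3.02 for all genes tested. The exceptions were mt-Tg (1.33 ± 0.83) and mt-Nd3 (2.55 ± 1.84). In CPM 14 of 16 separated these groups, as 1.33% of the genes compared did upward. This comparison runs across title sets B and C; within set C, stimulated female brain 26 and 27 were above stimulated male spleen for all 16 members, with log2 fold changes of 2.97 for mt-Rnr1, 2.93 for mt-Co1 and 3.57 for mt-Nd6, a contrast that also differs in sex and was chosen after seeing the data.

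Without stimulation, some mRNAs were higher in male brain than in male spleen and the ribosomal RNAs were not. After TMM scaling 7 of 16 members were called higher in brain (edgeR quasi-likelihood test, Benjamini-Hochberg over 11040 genes; 7.37% called, 3.35% called higher). These were mt-Co1 (log2 fold change 1.04 ± 0.12), mt-Cytb (0.995 ± 0.12), mt-Atp6 (0.99 ± 0.10), mt-Co2 (0.96 ± 0.17), mt-Nd2 (0.77 ± 0.13), mt-Nd5 (0.53 ± 0.15) and mt-Nd1 (0.53 ± 0.13). The median was 0.53 for the mRNAs and 0.31 for all genes tested. mt-Rnr1 and mt-Rnr2 had log2 fold changes of -0.13 and -0.25 (edgeR adjusted p 0.572 and 0.0581), and title set and tissue cannot be told apart here. mt-Co1 had 19498 to 25894 CPM in unstimulated brain, against 14543 to 17584 CPM in unstimulated spleen, and only mt-Co1 and mt-Atp6 separated the groups upward in CPM, 2 of 16, while 1.73% of the genes compared did. mt-Rnr1, mt-Rnr2 and mt-Tg separated them downward, 3 of 16, as 6.71% of the genes compared did. Scaled to total counts, 3 members (mt-Co1 0.47, mt-Cytb 0.44, mt-Atp6 0.43) were called higher, mt-Rnr1 (-0.68) and mt-Rnr2 (-0.80) were called lower, and mt-Nd1 and mt-Nd5 turned to -0.03. The call of mt-Nd5 was lost when any of 7 of the 11 libraries was left out, and a fit of all 35 libraries called 4 members.

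Age and sex gave no call among the members in the fits of the groups compared. Between aged and young unstimulated male brain, 0 of 16 members were called, as were 0% of 8068 genes. An unadjusted edgeR p under 0.05 was found for no member and for 374 of the 8068 genes. In CPM 0 of 16 separated the ages, as 0.741% of the genes compared did. Fold changes lay between -0.58 (mt-Tg) and 0.23 (mt-Co2) on the log2 scale, mt-Nd3 included. Between unstimulated female and male brain, 0 of 16 were called, against 0.15% of 8691 genes. At an unadjusted edgeR quasi-likelihood p under 0.05 there were 365 of the 8691 genes, among them mt-Co2 (log2 fold change -0.58 ± 0.19) and mt-Nd5 (-0.40 ± 0.18). In CPM, mt-Tg was the 1 member of 16 with every female library above every male one, as 0.49% of the genes compared did. Between stimulated female and male brain 0 of 16 and 0% of 3159 genes were called, with 158 genes and no member at unadjusted p under 0.05, and 0 of 16 separated the sexes in CPM, as 1.63% of the genes compared did. DESeq2 called 0 members in each of these comparisons as well. A fit of all 35 libraries together called mt-Rnr1 (0.93) and mt-Rnr2 (0.97) higher in stimulated female than male brain; in title set B alone these log2 fold changes were 0.30 and 0.28. A p that misses the threshold does not show that levels were equal, and the sex comparisons run across title sets.

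Within the mRNAs, the minus-strand gene mt-Nd6 took a larger part in stimulated brain cells. Its share of the 13 mRNAs' counts does not depend on scaling between libraries. Whether counting used strand is not given, so mt-Nd6 and its antisense RNA cannot be told apart in these counts. mt-Nd6 made up 3.47%, 3.83%, 3.32%, 3.92% and 3.43% of mRNA counts in stimulated female brain, against 2.13%, 1.88%, 1.89%, 2.06% and 2.29% in unstimulated female brain. In males it made up 3.14%, 3.25%, 3.65% and 4.999% in stimulated brain, against 1.73% to 2.83% in unstimulated brain with a median of 2.02%. Neither pair of groups overlapped, and each stimulated library was above 3% with no unstimulated brain library of the same groups reaching that level. The means were 3.59% ± 0.27 and 2.05% ± 0.17 in females (SD, n = 5 each; difference 1.54 percentage points, exact permutation test, two-sided, p = 0.00794, the smallest it can give, and 0.0381 after adjustment over 8 comparisons). In males they were 3.76% ± 0.85 (n = 4) and 2.13% ± 0.42 (n = 6), a difference of 1.63 points (exact permutation p = 0.00952, adjusted 0.0381). The male groups lie in different title sets, so set and stimulation cannot be told apart there.

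In spleen the share of mt-Nd6 was not higher with stimulation. mt-Nd6 made up 2.59%, 2.204%, 2.22%, 2.22% and 2.48% of mRNA counts in stimulated spleen, against 2.83%, 2.37%, 2.65%, 2.56% and 2.69% in unstimulated spleen, a difference of -0.28 points (exact permutation p = 0.0556, adjusted 0.0889). Stimulated male brain exceeded stimulated spleen by 1.42 points without overlap (exact permutation p = 0.0159, adjusted 0.0423). Unstimulated male brain lay 0.49 points lower than unstimulated spleen (difference -0.49, exact permutation p = 0.0519, adjusted 0.0889). Young male brain spread from 1.04% to 3.09%, and its mean of 2.21% ± 0.97 did not differ from the 2.13% of aged male brain beyond that spread (exact permutation p = 0.861, adjusted 0.861). As a share of all mitochondrial counts, ribosomal RNA included, the 3 differences that passed missed the threshold (exact permutation, each adjusted p = 0.0635). Leaving out single libraries lost the call in stimulated against unstimulated male brain for 4 of 10 libraries. In stimulated brain against spleen the call was lost for each of 9. Fewer samples also raise the smallest p the test can give in these comparisons. The widest 95% Wilson interval of a library's mt-Nd6 share spanned 0.126 percentage points.

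**Figure D4:**
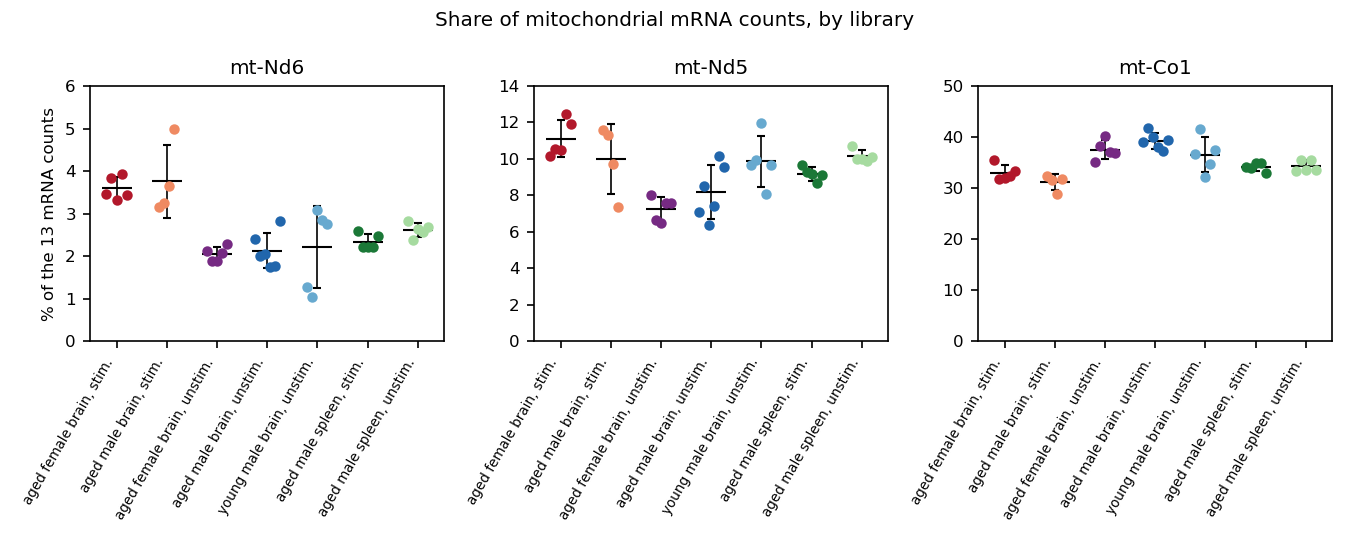
Percent of the counts of the 13 mRNAs that fell on mt-Nd6, mt-Nd5 and mt-Co1, for each library by group; points are libraries and bars give the mean and SD. mt-Nd6 stands above 3% in every stimulated brain library, while the mean of mt-Co1 is lower there than in aged unstimulated brain.

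mt-Co1 moved the other way within the mRNAs. It took 31.7% to 35.5% of mRNA counts in stimulated female brain, against 35.1% to 40.1% in unstimulated female brain, with a slight overlap. In males it took 28.9% to 32.5% with stimulation, against 37.3% to 41.7% without, and the groups were separate. mt-Nd5 took 10.1% to 12.5% in stimulated female brain, against 6.47% to 8.03% in unstimulated female brain, without overlap, but 7.36% to 11.6% in stimulated male brain, against 6.39% to 10.1% in unstimulated male brain, which overlap. Summed by respiratory complex, the 7 complex I mRNAs held 32.2% ± 2.19 of mRNA counts in stimulated female brain and 26.1% ± 1.28 in unstimulated female brain (SD, n = 5 each). The 3 complex IV mRNAs held 41.6% ± 1.21 in stimulated female brain and 47.3% ± 1.78 in unstimulated female brain. In males complex I held 31.9% ± 2.98 with stimulation (n = 4) and 24.5% ± 1.81 without (n = 6), and complex IV held 40.1% ± 0.49 and 49.6% ± 1.99. Sums over members were not tested. In spleen the shares lay closer: complex I held 29.4% ± 0.68 with stimulation and 30.9% ± 1.001 without, and complex IV 44.6% ± 1.80 and 45.6% ± 1.25. Complex V (mt-Atp6 and mt-Atp8) was the one that differed most there, with 17.8% to 22.1% in stimulated spleen and 16.9% to 17.9% in unstimulated spleen.

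Transfer RNAs were almost absent from the counts, with the exception of mt-Tg. The 22 genes are 59 to 75 bases long, and the deposited effective length, the number of positions a fragment can start from, was at most 1.3 for them, with TPM listed at 0. Together they had 4791 counts in the 35 libraries, of which 4624 (96.5%) fell on mt-Tg, the glycine transfer RNA that lies without a gap between mt-Co3 and mt-Nd3. Another 13 had 1 or more counts, 167 in all and at most 23 in a library, and 8 had 0 counts in every library. Plus-strand transfer RNAs had 4709 counts and minus-strand ones 82. Without mt-Tg the plus strand held 50.9% of the remainder. The highest by mean CPM after mt-Tg were mt-Te (glutamate, 45 counts in 9 libraries), mt-Tq (glutamine, 30 counts in 4), mt-Tv (valine, 22 counts in 7) and mt-Tl1 (leucine, 26 counts in 2). mt-Tg and the 2 minus-strand transfer RNAs with the highest mean CPM are shown with the anticodon in capitals.
mt-Tg, chrM:9391-9458, plus strand: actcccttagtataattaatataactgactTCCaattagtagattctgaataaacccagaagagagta
mt-Te, chrM:14071-14139, minus strand: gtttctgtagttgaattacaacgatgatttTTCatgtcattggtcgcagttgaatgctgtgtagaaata
mt-Tq, chrM:3772-3842, minus strand: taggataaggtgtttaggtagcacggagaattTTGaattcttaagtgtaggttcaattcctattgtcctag

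mt-Tg was also higher in stimulated brain, with fold changes of wide SE above the mRNA medians (log2 3.33 in males and 3.69 in females). It had 27.03, 63.3, 47.2, 72.8 and 45.6 CPM in stimulated female brain, against 3.73, 4.57, 3.46, 5.20 and 7.07 CPM in unstimulated female brain, a log2 fold change of 4.82 ± 1.21 (edgeR adjusted p 0.0323). In male brain mt-Tg had 9.07, 55.3, 35.3 and 94.2 CPM with stimulation, against 0.2002 to 3.14 CPM without (log2 fold change 5.44 ± 1.39, edgeR adjusted p 0.00978). The groups were separate in both sexes, although the female call was lost when any of 8 of 10 libraries was left out. Spleen had 23.1, 26.1, 10.4, 48.8 and 36.4 CPM with stimulation, against 16.3, 14.001, 13.1, 17.2 and 26.9 CPM without, and these overlap. Set against the mitochondrial total in place of the library total, mt-Tg took 64.3 to 131 CPM in stimulated female brain, against 30.001 to 55.4 CPM in unstimulated female brain. Unstimulated spleen, at 111 to 202, was above every unstimulated brain library by that measure, although spleen and male brain differ in title set. Young male brain replicate 2 had 0 counts of mt-Tg, which allows up to 0.194 CPM.

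One member shared its reads with a nuclear copy in the count table. mt-Nd4l (chrM:9877-10173) had the same count as Gm10222, a gene on chromosome 1 (chr1:24612407-24612700, minus strand) whose 294 bases match it at 100%, in 35 of 35 libraries, 1062 to 26610 counts each. The program that made the counts divides reads among matching sequences, so the level of mt-Nd4l as printed is uncertain by the reads given to its copy. In all, 11 genes outside the mitochondrial DNA have a transcript at least 95% identical to a member over at least 100 bases, matching 9 members. Of these, 5 were in the count table, Gm10222 the only one of them at 100% identity, and together they held 0.122% to 0.640% of a library's mitochondrial counts. The others, among them matches at 100% identity to most of mt-Atp6, mt-Co2 and mt-Co3 and to part of mt-Nd4, were not analysed here. Gm13340, a copy of mt-Co1 on chromosome 2, had 118 counts against 10604238 for mt-Co1.

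Few nuclear genes that act on mitochondrial RNA were called higher. Of the factors of mitochondrial transcription, RNA processing and translation, 0 were higher and 14 of 26 tested were lower in stimulated than in unstimulated male brain, where 36.4% of all genes were called lower. The RNA-degrading enzyme gene Pnpt1 had 0 counts in stimulated male brain against 90.6 ± 94.3 CPM in unstimulated male brain. Against 3 counts per library it was, by group mean, at least 70-fold lower, with Rexo2 at least 97.7-fold and Mtpap at least 22.7-fold lower. Fold limits here and below cover counting error only, not the larger spread between replicates. Genes given such limits had 0 counts in every library of the stimulated brain group. They passed the low-count filter through the other group and could only be called lower. The part of library depth in these limits was not tested. In stimulated female brain 0 of 15 were called, where 6.09% of all genes were called. Against all genes at 12.6% higher and 6.12% lower, in stimulated spleen 1 of 44 was higher (Trmt10c, of the transfer RNA cutting enzyme, log2 fold change 1.16 ± 0.18) and 3 were lower: the RNA-stabilising factor Lrpprc (-0.81 ± 0.13), the initiation factor Mtif3 (-1.19 ± 0.26) and the mitochondrial RNA polymerase Polrmt (-1.51 ± 0.49). The packaging and transcription factor Tfam had a log2 fold change of -0.10 ± 0.16 there (edgeR adjusted p 0.714). In brain the counts of these genes were low: Tfam had 2.66 ± 5.32 CPM in stimulated male brain, from 1 of 4 libraries, against 30.8 ± 37.6 CPM in unstimulated male brain. Between stimulated male brain and spleen 28 of 37 were lower, among them Hsd17b10, Mterfd1 and Mtif2, at least 9.1, 9.97 and 10.7-fold, where 46.7% of all genes were called lower.

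Nuclear-encoded respiratory chain genes were described in the same way. In stimulated against unstimulated male brain 36 of 65 tested were lower and 0 higher, where 36.4% of all genes were called lower and 1.75% higher. Sdha, the flavoprotein subunit of complex II, had 0.0391 ± 0.0782 CPM with stimulation, from 1 of 4 libraries, against 228.7 ± 64.9 CPM without, and the complex V gene Atp5c1 was at least 109-fold lower. In female brain 4 of 50 were lower, among them the complex I genes Ndufb9 (at least 91-fold) and Ndufa3 (at least 24.6-fold), where 4.17% of all genes were called lower. Spleen had 4 of 75 higher, where 12.6% of all genes were called higher, with Uqcrh at 0.72 ± 0.14 and Cox4i1 at 0.53 ± 0.12, and 1 lower (6.12% of all genes), Uqcrc1 at -0.49 ± 0.13 on the log2 scale; by CPM, Cox4i1 averaged 77.3 with stimulation and 84.4 without, so its direction depended on scaling. Unstimulated brain had 1 of 75 above spleen, Atp5h, of complex V, at 1.32 ± 0.29, where 3.35% of all genes were called higher. Stimulated male brain had 43 of 73 below stimulated spleen, where 46.7% of all genes were called lower, among them Atp5j2 (at least 10.3-fold) and Atp5k (at least 22.2-fold). The part of library depth in these nuclear values was not tested. Age called 0 of 28 factors and 0 of 70 respiratory chain genes tested, where 0% of all genes were called. Sex in unstimulated brain called 0 of 33 and 0 of 72, where 0.15% of all genes were called. For sex in stimulated brain 0 of 12 respiratory chain genes were called (0% of all genes), and no factor passed the filter on low counts. In the interactions, tissue by stimulation called 25 of 45 factors and 44 of 75 respiratory chain genes lower (35.7% of all genes), and sex by stimulation called 0 of 38 factors and 2 of 74 respiratory chain genes higher (Atp5c1 and Cox7b; 2.04% of all genes).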

How the data were processed

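RNA of sorted mouse CD8 T cells was sequenced in 35 libraries, grouped by their labels. Per the submitters' processing notes, the authors used Bowtie2 2.2.0 and RSEM 1.2.12 on mm10; neither annotation release nor strand setting is given there. The authors' sample files hold, per the file headers, RSEM expected counts, TPM and FPKM. TPM is scaled by effective length within a library, and FPKM was not used. The deposited series table holds whole-number counts, equal to the expected counts after rounding (largest difference 0.5), and was used for CPM, scaled to all counts of a library, and tests.

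All 37 members matched GENCODE M21 (GRCm38) by identifier, symbol and length. In R 4.3.3, edgeR 4.0.16 fitted only the groups compared (filterByExpr by group, minimum count 10, TMM, robust glmQLFit, two-sided glmQLFTest), with Benjamini-Hochberg adjustment over all genes tested and a threshold of 0.05; interactions used 4 groups. No sum over members was tested. The mt-Nd6 share was compared by exact permutation over libraries, adjusted over 8 comparisons. Similar transcripts were found with BLAST 2.17.0+. The tests were also run on simulated counts with equal numbers of genes raised and lowered. That simulation did not cover a downward shift of most genes, as seen in stimulated male brain. Tables and figures used matplotlib 3.10.9, SciPy 1.17.1, pandas 2.3.3, NumPy 2.4.6 and Python 3.11.15. Alternatives included DESeq2 1.42.0, limma 3.58.1, total-count scaling, other filters, expected counts, title sets and leaving out each library. A limit of 3 counts per library served for counts of 0 and covers counting error only.

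The members and gene lists were chosen with earlier results of these data known. Named were all ribosomal RNAs and mRNAs, the 5 transfer RNAs highest by mean CPM, Polrmt, Tfam and Lrpprc, and per pairwise comparison and direction up to 3 expression factors and 2 respiratory chain genes with the smallest adjusted p and a mean of at least 5 CPM; Atp5c1 and Cox7b in the interaction, Gm10222 and Gm13340 were named after their values were seen. Replicates differed by more than counting error in every group (chi-square over degrees of freedom at least 13.0).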

Additional observations from a re-analysis of the deposited data

Results flagged for a closer look

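Some libraries lay far from the others of their group, by Dixon's criterion on the gap to the nearest library; 12 values of 147 groups of values did, and chance flags about 1 in 20 groups. Stimulated spleen replicate 40 accounted for 5 of them, with 20.8% mitochondrial counts, 59226 CPM of mt-Rnr1, 4981 CPM of mt-Nd1, 3582 CPM of mt-Co3 and 329 CPM of mt-Nd3, each the highest of its group. Leaving out single spleen libraries left 15 or 16 members called. Stimulated spleen replicate 36 had the highest ratio of mt-Rnr1 to mt-Rnr2 counts, 0.933, and the lowest level of mt-Atp8, 145 CPM. Ribosomal RNA took the smallest part of mitochondrial counts in unstimulated female brain replicate 15 (35.7%) and unstimulated male brain replicate 8 (36.5%). Single high or low values were 1752 CPM of mt-Co3 in unstimulated female brain replicate 16, 3703 CPM of mt-Nd1 in unstimulated male brain replicate 10 and 10.1% mitochondrial counts in young male brain replicate 6.

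The response to stimulation differed between male brain and male spleen for 15 members, by the interaction test. The difference in log2 fold change, brain minus spleen, was 1.62 for mt-Rnr1 and 1.64 for mt-Rnr2. In complex I it was 2.07 for mt-Nd1, 2.18 for mt-Nd2, 2.61 for mt-Nd4, 2.17 for mt-Nd4l, 2.34 for mt-Nd5 and 2.95 for mt-Nd6. It was 1.82 for mt-Cytb, 1.61 for mt-Co1, 1.86 for mt-Co2, 2.03 for mt-Co3, 1.98 for mt-Atp6, 2.40 for mt-Atp8 and 3.86 for mt-Tg. The part of library depth and gene content, which differed most in stimulated brain, was not tested. Stimulated and unstimulated male brain also differ in title set.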

How the results depend on the processing

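The members kept their direction in stimulated male and female brain in every alternative run, with 14 to 16 called, and fold changes were smaller with total-count scaling. Scaling to total counts left 6 members called in spleen stimulation, and a fit of all 35 libraries left 3 there and 4 for unstimulated brain against spleen, but called 2 for sex in stimulated brain and 2 in the interaction of sex and stimulation. Without a filter on low counts, tissue by stimulation called 5. Leaving out single libraries gave 0 to 2 calls for sex by stimulation, 2 of them without stimulated female brain replicate 23 or stimulated male brain replicate 21. The cause of these shifts was not tested. With total counts, mt-Nd1 (-0.034) and mt-Nd5 (-0.031) reversed in unstimulated brain against spleen.

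As a share of all mitochondrial counts, the mt-Nd6 differences were 0.997 points for male brain, 0.520 for female brain and 1.38 for stimulated brain against spleen, none of them past the threshold (each adjusted p 0.0635). As a share of mRNA counts, leaving out single libraries, which leaves fewer samples and a larger smallest p, gave differences from 1.22 to 1.84 points in male brain, from 1.01 to 1.62 for stimulated brain against spleen, and from -0.629 to -0.410 for unstimulated brain against spleen, passing without unstimulated male brain replicate 12. In TPM the mean mitochondrial share was 43.4% in stimulated female brain, 36.5% in stimulated male brain, 8.75% in unstimulated male brain, 7.83% in young male brain and 10.6% in unstimulated spleen. No paired analysis was possible because the groups share no replicate numbers. Restricting stimulated female brain to replicates 24 to 26 (15 members called) and stimulated brain and spleen to title set C were alternatives chosen after seeing the data. Transfer RNAs other than mt-Tg were too sparse for a test.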
